A study of Mus musculus with 10 samples.

Results

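The plasma carrier proteins made by hepatocytes were represented by 10 genes chosen by name, namely Alb, Afm, Gc, Ttr, Rbp4, Trf, Cp, Serpina6, Ahsg and Fetub, among the 38922 genes in the tables. All 10 were found by their mouse Ensembl identifiers, and all 10 passed the filter on low counts. RNA had been sequenced from whole livers of wild-type male mice of the inbred strain C57BL/6N at an age of 6 weeks. CD95-Ab is an antibody that activates the death receptor Fas (CD95) on any cell that carries it. It had been injected into the abdomen of 5 of these mice, at 0.5 µg/g body weight, and 5 had received saline, without a control antibody, and all livers were taken after 6 h. Each mouse gave its own library, with 25965699 to 62097636 counts. The least counted carrier gene, Serpina6, still had 2300 counts in its lowest mouse, so counting error was small compared with the spread between mice. Levels are given as CPM, counts per 1000000 of a library total adjusted with TMM factors, which reduce the weight of a few very abundant genes. In RNA of whole liver, fewer hepatocytes and less carrier RNA per hepatocyte cannot be told apart.

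Hepatocytes secrete most of the soluble proteins of plasma, and many of these bind a cargo that dissolves poorly or is harmful when free. Albumin carries fatty acids, bilirubin and drugs, and other carriers are dedicated to a vitamin, a hormone or a metal. In inflammation the liver changes its output, and carriers are known as negative or positive acute phase proteins according to whether their plasma level goes down or up.

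Livers of mice injected with CD95-Ab had lower levels than saline-injected controls of 7 of the 10 carrier transcripts, Alb, Afm, Gc, Ttr, Rbp4, Serpina6 and Ahsg. A single carrier, the copper protein gene Cp, was higher, and Trf and Fetub did not pass the test. These calls come from the quasi-likelihood test of edgeR over all genes, with an FDR (Benjamini-Hochberg adjusted p) of 0.05 or less. Of the 13719 genes tested, 22.0% were called lower and 25.4% were called higher in the same way. The median log2 fold change of the 10 carriers was -0.69, and that of all tested genes was 0.01. The 612 genes whose mean over all 10 mice was at or above that of the least expressed carrier had a median of -0.23, with 32.0% of them called lower and 18.1% called higher. All 5 mice injected with CD95-Ab were below all 5 controls for 6 carriers, compared with 14.7% of tested genes, and above them for 1 carrier, compared with 18.6% of tested genes. Groups that do not overlap always give the smallest p that 5 mice against 5 allow, 0.00794, in the two-sided exact permutation test on means of log2(CPM + 0.1). For the carriers whose groups overlap, that exact test gave p = 0.0238 for Rbp4, p = 0.0873 for Fetub and p = 0.937 for Trf.

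**Figure D1:**
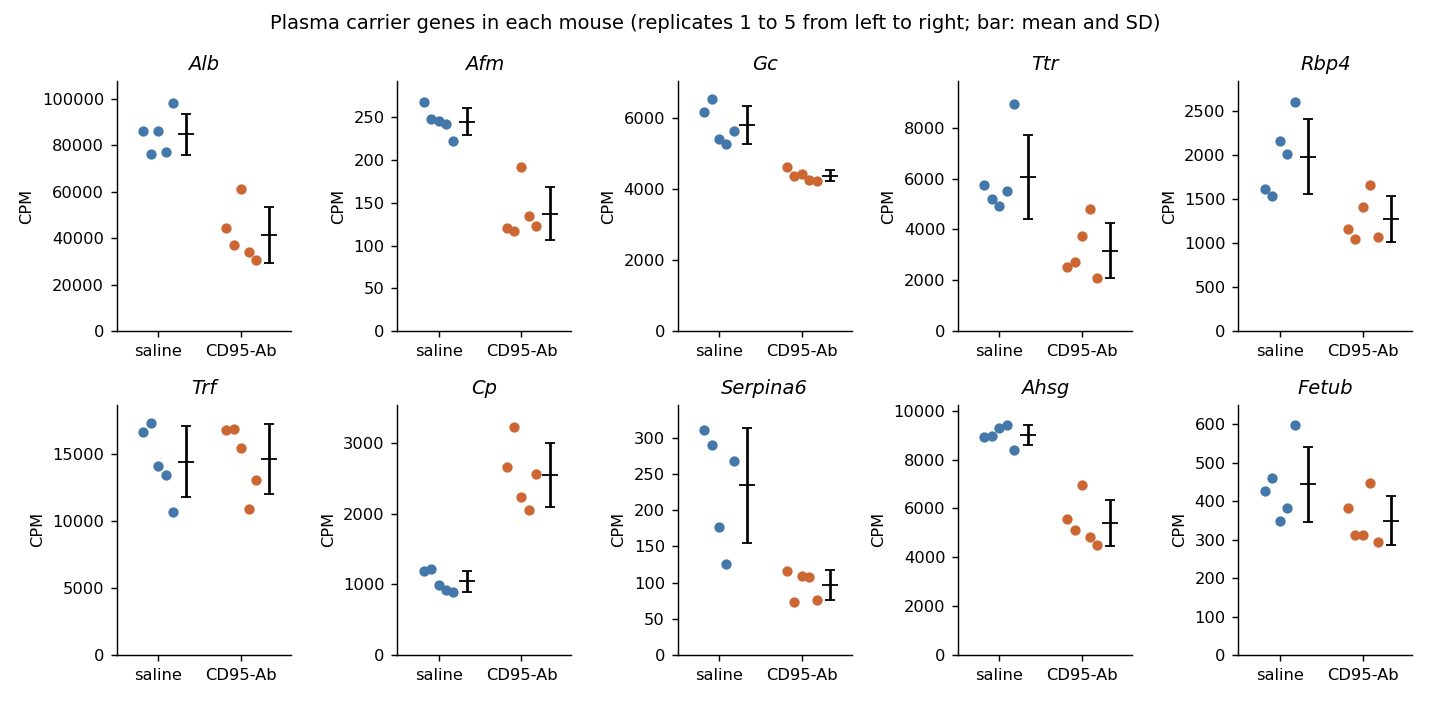
CPM of the 10 carrier genes (vertical axes, each from 0) in every mouse, with saline in blue and CD95-Ab in orange, and the mean and SD of 5 mice as a bar beside the points. The groups do not overlap for Alb, Afm, Gc, Ttr, Serpina6 and Ahsg, which are lower after CD95-Ab, nor for Cp, which is higher, and they overlap for Rbp4, Trf and Fetub.

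The albumin family consists of carriers that arose by gene duplication and lie close together on chromosome 5. Alb (ENSMUSG00000029368, chromosome 5, 90460897 to 90476602 in GRCm38) had 86057, 76153, 86190, 77170 and 98067 CPM in the 5 saline-injected mice. After CD95-Ab its levels were 44598, 37138, 60979, 33949 and 30505 CPM. No mouse injected with CD95-Ab reached the lowest control, and the mouse with the smallest loss, CD95-Ab replicate 3, had 2.00 times the level of the lowest mouse of its group. The mean fell from 84727 ± 8839 to 41434 ± 12103 CPM (SD, n = 5), with a log2 fold change of -1.03 (SE 0.25, edgeR quasi-likelihood test, FDR = 0.00529).

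Afm (ENSMUSG00000029369, chromosome 5, 90518932 to 90553543) encodes afamin, a carrier of vitamin E. Its saline values were 267.6, 247.7, 245.3, 241.5 and 222.2 CPM, and its values after CD95-Ab were 120.4, 117.5, 192.3, 134.3 and 122.4 CPM. The controls lay close together, and 4 of the 5 mice injected with CD95-Ab did as well, whereas replicate 3 was well above these 4. Its log2 fold change was -0.83 (SE 0.15, FDR = 0.000842 with edgeR). Gc (ENSMUSG00000035540, chromosome 5, 89417522 to 89457898) encodes the vitamin D-binding protein, which also binds free actin released from damaged cells. Gc was at 6158, 6528, 5423, 5273 and 5633 CPM in controls and at 4612, 4378, 4436, 4252 and 4231 CPM after CD95-Ab. Its 5 mice injected with CD95-Ab were the most alike of any carrier and group, with an SD of 0.05 on the log2 scale, and all lay below the lowest control. The log2 fold change of Gc was the smallest of those called, at -0.41 (SE 0.15, FDR = 0.0429 with edgeR). That call was lost in 12 of 21 alternative fits, among them 8 of the 10 that each left out 1 mouse.

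Alpha-fetoprotein, the fetal member of this family, lies between Alb and Afm, 14135 bp from the first and 10025 bp from the second. Afp was low in these livers, at 1.63 ± 0.70 CPM in controls, and it fell to 0.68 ± 0.20 CPM (SD, n = 5, log2 fold change -1.24, FDR = 0.00882 with edgeR). The gene beyond Afm, 5830473C10Rik, fell as well, with a log2 fold change of -1.42 (FDR = 0.000448 with edgeR). The tested neighbours of Gc are farther away, with Slc4a4 at 177869 bp and Adamts3 at 219189 bp, and both rose, by log2 fold changes of 1.29 (FDR = 0.00289) and 2.01 (FDR = 0.00395 with edgeR).

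RefSeq promoter windows were used for 7 of the 10 genes (Alb, Afm, Gc, Rbp4, Cp, Ahsg and Fetub). They reach from 250 bases before each start to 50 bases after it. The letters named below were searched only in the 250 bases before the start. No window was at hand for Trf and Serpina6. Ttr was left out of this step by choice, so the window counts of the carriers cover none of these genes. Sequence before the start is shown for the albumin family, for Ahsg, a carrier gene that fell from another chromosome, and for Cp, the carrier gene that rose. The Afm sequence stops where annotated exon begins, and the start used for Ahsg is that of RefSeq, inside the longer GENCODE gene. Capitals mark TATAA (letters of a box near many starts), CCAAT (a box named after its letters), GTTAAT (letters that the 3 albumin family sequences share) and TTGCNNAA (letters found in sites of C/EBP factors), on either strand. The Cp sequence holds none of them in the stretch shown, and no 2 matches in these windows overlap apart from TATAA on both strands in a second window of Cp that is not shown. The RefSeq start used for Alb lies before the GENCODE start given above.
Alb, chr5:90460720-90460869, plus strand, GRCm38.p6: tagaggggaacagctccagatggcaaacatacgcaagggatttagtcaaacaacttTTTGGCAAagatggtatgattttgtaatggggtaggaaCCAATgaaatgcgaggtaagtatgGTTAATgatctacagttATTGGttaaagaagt
Afm, chr5:90518799-90518931, plus strand, GRCm38.p6: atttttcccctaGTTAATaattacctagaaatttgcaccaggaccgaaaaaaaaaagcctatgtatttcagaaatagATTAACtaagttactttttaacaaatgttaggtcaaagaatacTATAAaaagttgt
Gc, chr5:89457899-89458048, minus strand, GRCm38.p6: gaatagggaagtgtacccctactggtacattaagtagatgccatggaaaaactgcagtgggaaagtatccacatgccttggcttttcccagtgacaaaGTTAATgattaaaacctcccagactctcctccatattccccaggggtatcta
Ahsg, chr16:22891865-22892014, plus strand, GRCm38.p6: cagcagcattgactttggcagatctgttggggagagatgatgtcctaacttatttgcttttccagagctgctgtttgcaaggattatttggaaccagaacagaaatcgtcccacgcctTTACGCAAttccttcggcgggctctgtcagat
Cp, chr3:19956904-19957053, plus strand, GRCm38.p6: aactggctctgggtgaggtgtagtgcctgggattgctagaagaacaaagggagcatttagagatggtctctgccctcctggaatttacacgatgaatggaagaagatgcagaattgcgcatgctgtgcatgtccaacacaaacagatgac

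GTTAAT stood 32 to 27 bases before the start of Alb, 52 to 47 bases before that of Gc, and in Afm at 138 to 133 bases and again, reversed, at 73 to 68 bases. In Cp it stood outside the stretch shown, 194 to 189 bases before the start. The table holds 10 windows for these 7 genes, since some genes have more than 1 start. GTTAAT was in 4 of the 10, 3 of them the albumin family windows whose shared letters it is, and in 6.43% of all 32851 windows of the table. CCAAT was in 6 of the 10 (33.8% of all windows), TATAA in 4 (22.8%) and TTGCNNAA in 4 (9.56%). The letters were chosen after the expression values were known, they occurred in genes that fell and in the gene that rose, and a match is not a measured binding site.

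Ttr and Rbp4 encode proteins that travel together, since transthyretin binds thyroxine and also holds retinol-binding protein with its retinol in the circulation. Ttr (ENSMUSG00000061808, chromosome 18, 20665280 to 20674321) had 5744, 5187, 4917, 5491 and 8932 CPM in controls and 2541, 2704, 3736, 4797 and 2075 CPM after CD95-Ab. The groups were separated by a narrow gap, between saline replicate 3 and CD95-Ab replicate 4. Ttr had a log2 fold change of -0.93 (SE 0.26, FDR = 0.0121 with edgeR). Rbp4 (ENSMUSG00000024990, chromosome 19, 38116629 to 38125281) had 1618, 1533, 2151, 2004 and 2596 CPM in controls and 1162, 1046, 1404, 1657 and 1070 CPM after CD95-Ab. CD95-Ab replicate 4 lay above 2 of the controls, so the groups overlapped. The log2 fold change of Rbp4 was -0.64 (SE 0.20, FDR = 0.0188 with edgeR), and the FDR was 0.0523 without CD95-Ab replicate 2. The same mouse was the highest of each group for both genes, saline replicate 5 and CD95-Ab replicate 4. This was not particular to Ttr and Rbp4, since these mice were also the highest of their groups for Fetub, Apoa2, Apoc1 and Apoc3. The ratio of Ttr to Rbp4, from FPKM values that take transcript length into account, was 2.33 ± 0.41 in controls and 1.85 ± 0.29 after CD95-Ab (SD, n = 5), with overlap between the groups.

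Another thyroxine carrier made by the liver, thyroxine-binding globulin, went the opposite way from Ttr. Its gene Serpina7 rose from 28.2 ± 13.1 to 181 ± 51.0 CPM (SD, n = 5, log2 fold change 2.68, SE 0.33, FDR = 5.45e-05 with edgeR). Among genes that receive these cargoes, the thyroid hormone receptor gene Thrb was lower, with a log2 fold change of -0.58 (FDR = 0.015 with edgeR). The retinol uptake receptor gene Stra6l of the liver was higher, with a log2 fold change of 0.66 (FDR = 0.00408 with edgeR). These last 2 genes were picked from their list after their values were seen.

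Trf and Cp encode partners in iron transport, since the ferroxidase ceruloplasmin oxidizes the iron that transferrin binds, and ceruloplasmin carries most of the copper of plasma. Trf (ENSMUSG00000032554, chromosome 9, 103204001 to 103230444) had 16603, 17265, 14048, 13418 and 10673 CPM in controls and 16736, 16875, 15449, 10890 and 13070 CPM after CD95-Ab. The 2 sets of mice covered almost the same range. The log2 fold change was 0.02, with a 95% interval from -0.44 to 0.48 (SE 0.21, FDR = 0.946 with edgeR), and its sign depended on the scaling of the totals. An increase or decrease of Trf within that interval was not detectable here. Cp (ENSMUSG00000003617, chromosome 3, 19957054 to 20009145) had 1185, 1222, 990, 924 and 892 CPM in controls. After CD95-Ab it had 2669, 3230, 2232, 2049 and 2558 CPM, all above the highest control. The mean rose 2.44-fold, from 1042 ± 152 to 2548 ± 455 CPM (SD, n = 5), with a log2 fold change of 1.29 (SE 0.18, FDR = 0.000113 with edgeR).

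The ratio of Cp to Trf within each mouse, in FPKM, was 0.0532, 0.0536, 0.0535, 0.0534 and 0.0605 in controls. It was 0.122, 0.154, 0.116, 0.150 and 0.171 after CD95-Ab. In 4 controls the ratio was nearly the same although their Trf levels differed, and every mouse injected with CD95-Ab had a higher ratio than every control. Transcripts of the hemoglobin-binding haptoglobin, Hp, and of the heme-binding hemopexin, Hpx, were higher, with log2 fold changes of 1.30 (FDR = 0.00148) and 0.98 (FDR = 0.0339 with edgeR). The groups overlapped for Hpx, since saline replicate 2 had 11222 CPM and the lowest mouse injected with CD95-Ab had 9989 CPM. The copper transporter gene Atp7b, whose product loads copper into ceruloplasmin, fell to 8.33 ± 1.79 CPM (SD, n = 5, log2 fold change -1.26, FDR = 0.000393 with edgeR). The iron exporter gene Slc40a1 fell by 0.90 on the log2 scale (FDR = 0.0278 with edgeR), with overlap between the groups. Bmp6, an inducer of hepcidin, and Heph, a membrane ferroxidase related to ceruloplasmin, rose from below 1 CPM, by log2 fold changes of 1.26 (FDR = 0.00313) and 1.47 (FDR = 0.011 with edgeR).

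Serpina6 (ENSMUSG00000060807, chromosome 12, 103646630 to 103657212) encodes corticosteroid-binding globulin, the plasma carrier of glucocorticoids. It had 311.3, 290.6, 177.5, 125.5 and 268.9 CPM in controls and 116.6, 73.2, 109.8, 107.5 and 76.3 CPM after CD95-Ab. The controls were spread more widely than for any other carrier, with an SD of 0.56 on the log2 scale, and the lowest of them stood just above the highest mouse injected with CD95-Ab. Serpina6 had the largest fall among the carriers, with a log2 fold change of -1.28 (SE 0.25, FDR = 0.00132 with edgeR). Its neighbours on chromosome 12, which encode other serpins, differed from it, with a log2 fold change of 1.13 for Serpina10 (FDR = 0.00044) and of -0.41 for Serpina1b (FDR = 0.0523 with edgeR). The differences between these neighbours and Serpina6 were not tested.

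Ahsg and Fetub encode fetuin-A, which keeps calcium phosphate in solution in plasma, and the related protease inhibitor fetuin-B, and they lie 18885 bp apart on chromosome 16. Ahsg (ENSMUSG00000022868, 22891277 to 22899449) had 8935, 8967, 9297, 9417 and 8379 CPM in controls and 5560, 5133, 6944, 4847 and 4495 CPM after CD95-Ab. The controls had an SD of 0.07 on the log2 scale, the smallest among controls for any carrier. All of them were above every mouse injected with CD95-Ab. Ahsg had a log2 fold change of -0.74 (SE 0.18, FDR = 0.00454 with edgeR). Fetub (ENSMUSG00000022871, 22918334 to 22939778) had 425.9, 461.7, 348.9, 383.5 and 598.8 CPM in controls and 382.7, 313.2, 312.2, 447.0 and 292.8 CPM after CD95-Ab. Its groups overlapped, and the log2 fold change was -0.34, with a 95% interval from -0.73 to 0.04 (SE 0.18, FDR = 0.132 with edgeR). The next gene, Hrg, which encodes a histidine-rich plasma protein, was lower, with a log2 fold change of -0.54 (FDR = 0.00291 with edgeR). The ratio of Ahsg to Fetub, in FPKM, was 21.9 ± 5.03 in controls and 16.1 ± 4.22 after CD95-Ab (SD, n = 5), with overlap between the groups.

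**Figure D2:**
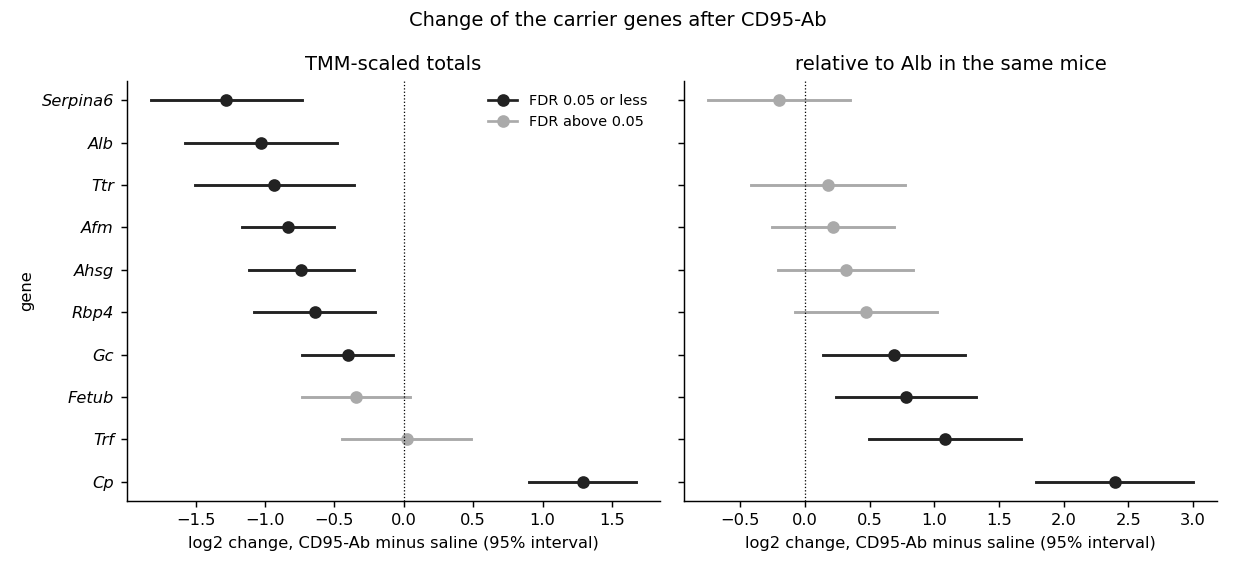
Log2 fold change (CD95-Ab minus saline, horizontal axes) of each carrier gene with its 95% interval, from totals scaled with TMM factors on the left and with albumin counts as the library size on the right, in black where the FDR is 0.05 or less. On the left the order runs from Serpina6 at -1.28 to Cp at 1.29, and on the right Gc, Fetub, Trf and Cp lie above 0 while no gene lies below 0 at that FDR.

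To ask which carriers changed by another factor than albumin, all genes were fitted again with the albumin count of each mouse as its library size. This comparison does not depend on how the totals are scaled. Relative to albumin, 4 of the other 9 carriers were higher after CD95-Ab (Gc, Trf, Cp and Fetub) and 0 were lower. Since albumin itself fell, 76.7% of all tested genes were higher on this scale and 1.28% were lower, and the median of all tested genes was 1.11. The log2 differences from albumin were 0.69 for Gc (SE 0.26, FDR = 0.0219), 0.78 for Fetub (SE 0.26, FDR = 0.00993) and 1.08 for Trf (SE 0.28, FDR = 0.00167 with edgeR). Cp stood 2.39 above albumin (SE 0.29, FDR = 3.19e-07 with edgeR). For the remaining carriers no difference from albumin passed the test, although the intervals allowed one of some size. The 95% interval ran from -0.25 to 0.69 for Afm, from -0.42 to 0.77 for Ttr, from -0.08 to 1.02 for Rbp4, from -0.75 to 0.34 for Serpina6 and from -0.21 to 0.83 for Ahsg.

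Levels of different carriers were compared by FPKM, which divides by transcript length. Ranks were taken over all genes, including the mitochondrial transcripts, of which 0 were called in either direction. Alb was the most expressed of all genes in controls, at 43845 ± 3597 FPKM (SD, n = 5), and ranked 6 after CD95-Ab, at 20284 ± 5850 FPKM. Below it in controls came Ahsg, Trf and Ttr, with means of 6581, 6044 and 5290 FPKM, whose neighbouring ranges overlapped. Gc at 3438 FPKM and Rbp4 at 2291 FPKM followed, each separate from its neighbours. Cp and Fetub, at 328 and 309 FPKM, overlapped in controls, as did Serpina6 and Afm, at 158 and 127 FPKM.

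After CD95-Ab the order of the means changed at 2 places, for Trf and Ahsg and for Afm and Serpina6. Trf, at 5787 ± 1507 FPKM, stood above Ahsg, at 3703 ± 693 FPKM, in 5 of 5 mice, compared with 2 of 5 controls, although the ranges of the 2 genes still overlapped. Cp rose to 817 ± 207 FPKM and separated from Fetub, at 236 ± 45.5 FPKM, and its rank among all genes went from 202 to 99. Afm, at 66.7 FPKM, and Serpina6, at 60.8 FPKM, exchanged places without a difference beyond their spread. The ranges of Ttr and Gc, at 2591 and 2440 FPKM, overlapped after CD95-Ab, which they had not in controls.

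**Figure D3:**
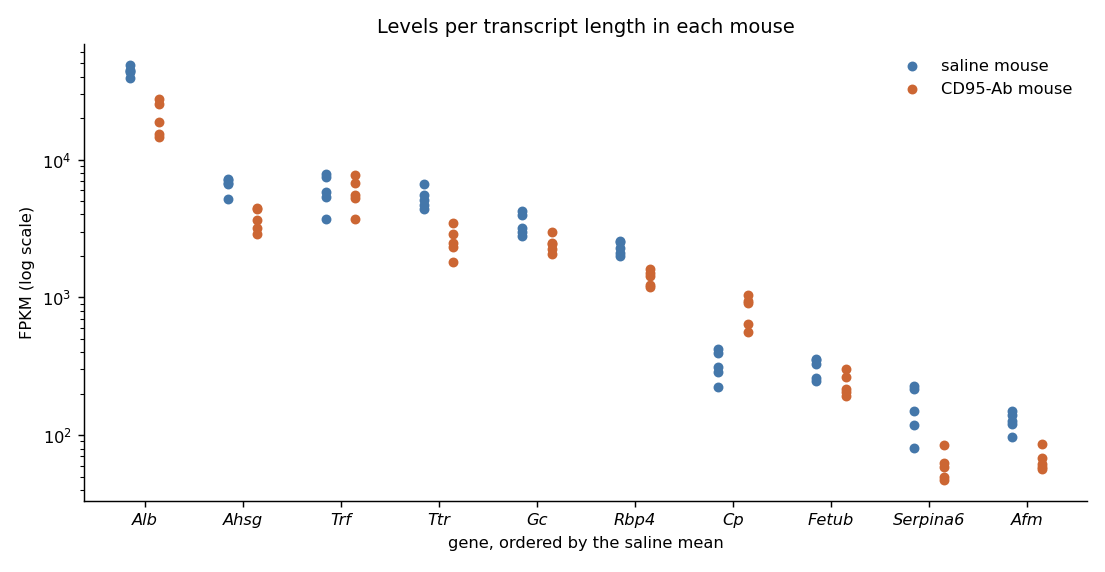
FPKM of the 10 carrier genes (vertical axis, log scale) in every mouse, ordered by the saline mean, with saline and CD95-Ab side by side. Alb lies above all others in both groups, and the Cp points move from the level of Fetub, with means of 328 and 309 FPKM in controls, to 817 against 236 FPKM after CD95-Ab.

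Together the 10 genes held 12.8% ± 1.16 of all counts in controls (SD, n = 5, from 11.5% to 14.3%) and 7.16% ± 1.57 after CD95-Ab (from 5.36% to 8.90%). Without Alb, the other 9 genes held 4.07% ± 0.61 and 3.12% ± 0.52. Within this pool the share of albumin fell and that of transferrin rose, although the level of Trf itself was not called different (log2 fold change 0.02). Alb contributed 68.2% ± 2.74 of the carrier counts in controls and 55.7% ± 4.81 after CD95-Ab, and Trf contributed 11.7% ± 2.53 and 20.2% ± 3.31. The shares of all counts rest on unadjusted totals, whereas the shares of the carrier counts do not depend on those totals. In the totals, mitochondrial transcripts took 7.47% to 21.7% of counts in controls and 8.33% to 21.8% after CD95-Ab. Of their 13 genes, 0 were called in either direction (edgeR, median log2 fold change 0.48).

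**Figure D4:**
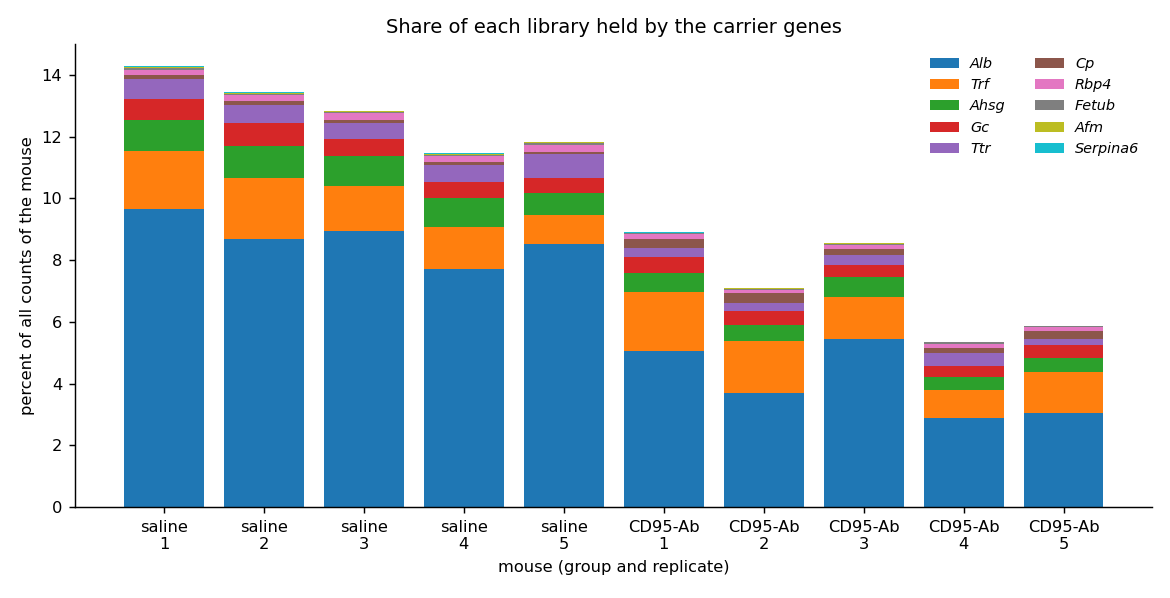
Share of all counts of each mouse (vertical axis, percent) held by the 10 carrier genes, stacked by gene. The bars of the 5 controls end between 11.5% and 14.3% and those of the 5 mice injected with CD95-Ab between 5.36% and 8.90%, and Alb is the largest part of each bar.

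The carriers did not move as a block from mouse to mouse. Saline replicate 5 was the highest control for Alb, Ttr, Rbp4 and Fetub and the lowest for Afm, Trf, Cp and Ahsg. CD95-Ab replicate 4 was the highest of its group for Ttr, Rbp4 and Fetub and the lowest for Trf and Cp. CD95-Ab replicate 3 had the highest Alb, Afm and Ahsg, and CD95-Ab replicate 5 the lowest Alb, Gc, Ttr, Ahsg and Fetub. The nearest pair of carriers over the 10 mice was Afm and Ahsg, with a root mean square difference of 0.14 in log2 CPM after each gene was centred on its saline mean.

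**Figure D5:**
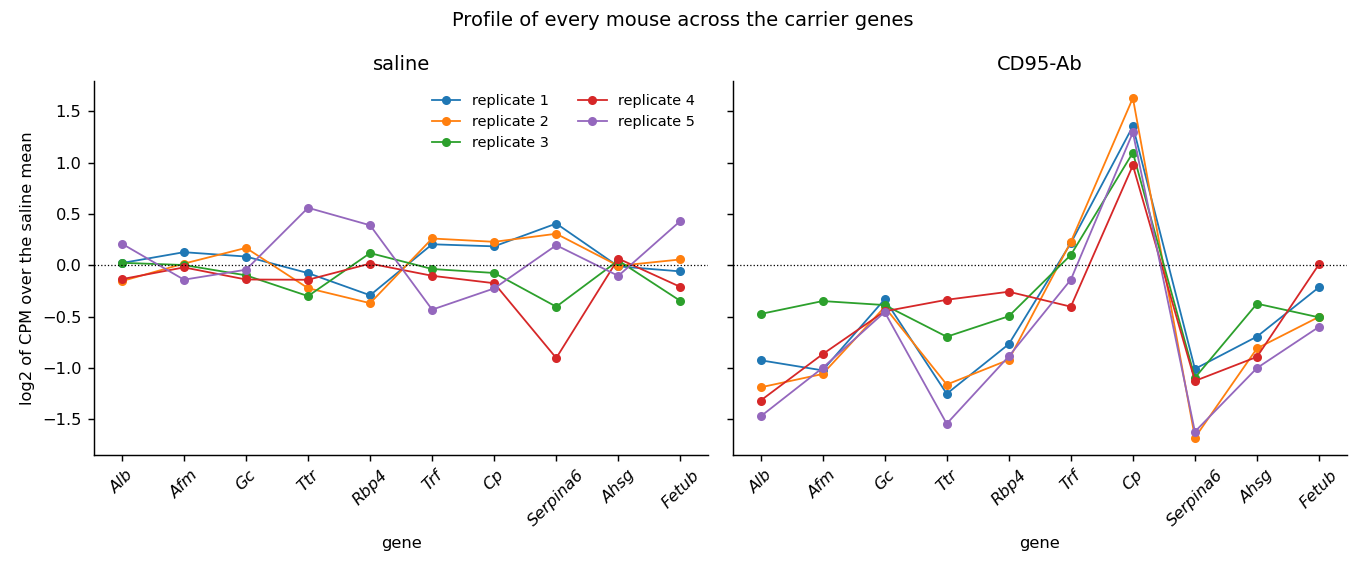
Log2 of the CPM of each mouse over the saline mean (vertical axis) for the 10 carrier genes, with 1 line per mouse and saline on the left and CD95-Ab on the right. Saline replicate 5 rises at Ttr, Rbp4 and Fetub and dips at Trf, and in the CD95-Ab panel all 5 lines peak at Cp while replicate 4 lies above the others at Ttr.

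By the same measure, each carrier was compared with 11605 other genes of at least 1 CPM. Alb was nearest to Uox, the urate oxidase gene (0.17), and Afm to Maob, a monoamine oxidase gene (0.12). The nearest gene to Gc was Tfr2, the liver transferrin receptor gene, with a difference of 0.06 and a log2 fold change of -0.38 (FDR = 0.0114 with edgeR). Ttr was nearest to Emc9 (0.15), Rbp4 to Chchd7 (0.09), Ahsg to Pgpep1 (0.11), Fetub to Mrpl51 (0.11) and Serpina6 to A330023F24Rik (0.23). Trf was nearest to Rnf14 (0.08), and Cp to Wdr1 (0.16), which encodes a protein that takes actin filaments apart. These likenesses describe the 10 mice and were not tested.

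Other plasma carriers moved in both directions. The counts of this and the later lists are to be read beside the shares over all tested genes, 22.0% lower and 25.4% higher. Of 22 on the list, 21 were tested, 7 were lower and 9 were higher, with a median log2 fold change of 0.07. The largest rises were those of Lcn2 (5.90, FDR = 8.58e-06), Orm2 (3.15, FDR = 0.0017) and Serpina7, the first of which encodes a siderophore-binding lipocalin and the second a form of orosomucoid, an acute phase carrier of drugs. The largest falls were those of Afp, of Igfals (-1.23, FDR = 0.000997) and of Igfbp2 (-1.05, FDR = 0.00366 with edgeR), which encode binding partners of insulin-like growth factors. Summed over the list, these carriers had 28949 to 40104 CPM in controls and 45393 to 55896 CPM after CD95-Ab. The 10 carriers studied here had sums of 114447 to 136262 and 58494 to 95794 CPM. Abundant genes weigh most in such sums, among them Hp (means of 4362 and 10745 CPM), Hpx (6031 and 11926 CPM) and Alb (84727 and 41434 CPM). Of 34 other secreted hepatocyte proteins, 7 were lower and 5 higher, with a median of -0.28, and 12 were lower with upper-quartile factors or unadjusted totals. Fibrinogen genes rose, with log2 fold changes of 0.99 for Fga (FDR = 0.00658) and 0.93 for Fgg (FDR = 0.00201), and Itih3 rose by 0.95 (FDR = 0.00226 with edgeR). Serpinc1, the antithrombin gene, and Apoh were both at -0.62 (FDR = 0.00264 and 0.00383), and Serpind1 was at -0.66 (FDR = 0.0121 with edgeR).

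Genes that receive or handle the cargoes were lower for 11 and higher for 4 of the 30 tested out of 32, with a median of -0.31. Over all tested genes the shares were 22.0% lower and 25.4% higher. The asialoglycoprotein receptor gene Asgr2, whose product clears plasma glycoproteins, was at -0.76 (FDR = 0.000309 with edgeR). The largest rise of that list, Vdr with 3.88 (FDR = 0.00043 with edgeR), started from 0.044 CPM, which is below the level of 3 counts in any of these libraries. The machinery that takes secreted proteins into and out of the endoplasmic reticulum was not lower for any of its 32 genes. It was higher for 12, with a median of 0.34, or for 9 with upper-quartile factors and 8 with unadjusted totals. The chaperone gene Hspa5 rose by 1.75 (FDR = 1.75e-05), and the transport vesicle coat genes Sec23b and Sec24d rose by 1.65 (FDR = 0.00012) and 0.99 (FDR = 0.00341 with edgeR).

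Transcription factors known for hepatocyte genes were lower for 13 of 24 and higher for 4, with a median of -0.71. Cebpa fell from 233 ± 21.1 to 75.5 ± 15.3 CPM (SD, n = 5, FDR = 7.81e-06 with edgeR). Hnf4a had a log2 fold change of -0.34 and was not called (FDR = 0.157 with edgeR). The acute phase members of the C/EBP family rose, by 1.27 for Cebpb (FDR = 0.00537) and 2.27 for Cebpd (FDR = 0.000355 with edgeR), as did Nfil3 (1.12, FDR = 0.00387). The largest falls were those of the clock-controlled factors Dbp (-3.80, FDR = 0.00251), Tef (-2.35, FDR = 0.00106) and Hlf (-2.14, FDR = 3.31e-06 with edgeR).

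Intracellular enzymes of hepatocytes were lower for 13 of 17 genes and higher for 0, with a median of -0.88, and the largest falls were those of G6pc (-4.16, FDR = 1.53e-05), Gys2 (-1.97, FDR = 3.65e-05) and Hal (-1.16, FDR = 0.00428 with edgeR). Markers of other cells were lower for none of their genes and were higher to a varying extent. Of the endothelial markers 5 of 6 were higher, with a sum of 48.5 to 104 CPM in controls and 169 to 344 CPM after CD95-Ab. Neutrophil markers were higher for all 4 tested of 6 (Ly6g and Mpo were too low to be tested), with sums of 3.39 to 8.73 and 97.1 to 394 CPM, and erythroid markers for 5 of 5, with sums of 135 to 323 and 1064 to 33995 CPM. Stellate cell markers were higher for 4 of 6 (137 to 177 and 299 to 462 CPM), cholangiocyte markers for 4 of 5 (18.3 to 33.8 and 48.3 to 186 CPM), and lymphocyte markers for 5 of 6 (1.41 to 5.55 and 6.93 to 10.4 CPM), or 3 of 6 with unadjusted totals. Kupffer cell markers were higher for 2 of 7, or 1 of 7 with upper-quartile factors or unadjusted totals, and their sums overlapped (130 to 442 and 255 to 567 CPM). The part of these other cells in the lower carrier levels was not tested.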

How the data were processed

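The samples were liver RNA of 5 controls and of 5 mice given CD95-Ab, grouped by the sample labels. Libraries had been made from 500 ng of RNA with a TruSeq kit and read as pairs of 100 bases. The authors assigned reads to genes with RSEM version 1.2.19 (per the labels) and deposited an expected count, not normalized and whole in these tables, and a value in FPKM, scaled for transcript length and depth, for every gene and mouse. The methods mention an annotation of the human genome (Gencode), whereas the tables carry mouse Ensembl identifiers, and the genome build and mouse annotation release are not given in the sources used here. RSEM shares out fragments that match several genes, so values of near-identical genes (the Serpina1 and Orm families and the hemoglobins) depend on that step. Symbols and positions came from GENCODE mouse release M21 (GRCm38), which matched 37606 of 38922 identifiers, and promoter windows from RefSeq (GRCm38.p6). Trf overlaps Gm20425 and Cp overlaps Hps3, both of far lower count.

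Low genes were removed with filterByExpr (minimum count 10) in edgeR 4.0.16 under R 4.3.3. The remaining 13719 genes were scaled by TMM and entered a quasi-likelihood F test between groups, with no other covariate and with Benjamini-Hochberg adjustment over them. A second fit took the albumin count as the library size. Single genes were also compared by an exact permutation test on log2(CPM + 0.1) in scipy 1.17.1. Likeness between genes used log2 CPM with a prior count of 2. Levels between genes were compared only by the FPKM that the authors deposited. Within groups, counts of any 2 mice differed by far more than sampling noise (chi-square per degree of freedom 30.0 to 396 over 20 pairs). Depth ranged from 25965699 to 62097636 counts, at which 3 counts are 0.116 to 0.048 CPM, and such limits cover counting error only. Simulated counts of 13593 genes had 197 set to a log2 fold change of 1 in either direction. The test recovered 53.8% of those 197 (72.4% in the top quartile of expression), and 2.75% of what it called had not been changed. In the data 47.3% of tested genes were called and Alb fell, and the simulation does not cover such a shift in composition.

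The members, the other lists and the naming rules were chosen with earlier results of these data known. The text names all members, up to 3 called genes with the largest rise and up to 3 with the largest fall of the other lists, some factors and carriers listed beforehand, the nearest tested gene on each side of a member and the most alike gene. Of the marker lists and the mitochondrial transcripts only counts and sums are given, and some genes under the rule were left out for length. Alternatives were DESeq2 1.42.0, limma 3.58.1 on log2(FPKM + 0.1), the likelihood ratio test, other factors, filters and thresholds, a block for the replicate number, and fits without each mouse in turn. TMM factors made without the members, mitochondrial and erythroid genes were added after seeing the data. No batch is given in the labels. Protein levels were not analysed here. Some listed genes are not reported here.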

Additional observations from a re-analysis of the deposited data

Results flagged for a closer look

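In 20 sets of 5 mice, 1 for each carrier gene and group, the highest or lowest mouse was compared with the others by Dixon's gap criterion, under which chance alone marks about 1 set in 20. It marked 2 sets. Afm in CD95-Ab replicate 3, at 192.3 CPM, lay above the other 4 mice of its group, which ranged from 117.5 to 134.3 CPM. Without this mouse the log2 fold change of Afm was -0.99 (FDR = 7.9e-05 with edgeR), compared with -0.83 in all mice. It also had the highest Alb and Ahsg of its group. Ttr in saline replicate 5, at 8932 CPM, lay above the other 4 controls, which ranged from 4917 to 5744 CPM. Without it the log2 fold change of Ttr was -0.76 (FDR = 0.0259 with edgeR), compared with -0.93 in all mice.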

How the results depend on the processing

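Alb, Afm, Cp, Serpina6 and Ahsg kept their direction and their call in all 21 alternative fits, and Fetub was not called in any of them. The number of carriers called lower was 4 at an FDR of 0.01, where Gc, Ttr and Rbp4 were lost, and 5 to 7 when 1 mouse was left out, and 1 carrier was higher in each of those fits. Gc had an FDR of 0.0956 without the filter on low counts and of 0.0579 with 10 counts required in every mouse, and among the fits that left out 1 mouse it was kept only without saline replicate 4 (0.0473) or saline replicate 5 (0.0491). Rbp4 was lost without CD95-Ab replicate 2 (0.0523). The log2 fold change of Trf was below 0 with upper-quartile factors (-0.055), unadjusted totals (-0.070), no filter (-0.014) and limma on FPKM (-0.055), and it ranged from -0.074 to 0.10 when 1 mouse was left out. Over all genes 6495 were called, with 4492 at an FDR of 0.01 and 5616 to 6977 when 1 mouse was left out.

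Relative to albumin, 3 to 5 carriers were higher and 0 lower when 1 mouse was left out. Gc was lost there without saline replicate 3 (0.0602) or CD95-Ab replicate 5 (0.0591), Rbp4 was gained without CD95-Ab replicate 3 (0.0424), and Ttr ranged from -0.13, without CD95-Ab replicate 4, to 0.28. The cause of these changes was not tested. The carriers held 10.1% of the FPKM sum in controls and 5.07% after CD95-Ab, and, when mitochondrial transcripts were left out, 14.4% of counts in controls and 8.35% after CD95-Ab. With 1 mouse left out, they held 12.4% to 13.1% and 6.72% to 7.60% of counts.

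The labels do not say whether the replicate numbers pair the mice. Deviations of mice of the same number had correlations of 0.26, 0.09, 0.13, -0.02 and -0.27 over genes for numbers 1 to 5. Their mean was 0.04, and that of different numbers was -0.01. These correlations were not tested and cannot settle whether mice were paired. With the number as a replicate block, 6 carriers were lower, without Gc (FDR = 0.0866), 1 was higher, and 5987 genes were called. Depth did not limit the carriers, and Vdr in controls lies near the level of a few counts.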

Other observations

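Mitochondrial transcripts took 21.7% of counts in saline replicate 5 and 21.8% in CD95-Ab replicate 4, the highest shares of the 2 groups, and at most 17.8% in every other mouse. These same mice had the highest Ttr, Rbp4 and Fetub and the lowest Trf and Cp of their groups. Rbp4 and Ttr are the carriers of shortest effective length, at 879 and 1163 bases as implied by the ratio of count to FPKM, and Cp and Trf are those of greatest length, at 3228 and 2498 bases, while Fetub, at 1455 bases, lies between them. In saline replicate 5 Ahsg, at 1418 bases, was the lowest of its group and Alb, at 1987 bases, the highest. The part of the mitochondrial share or of transcript length in these levels was not tested. CD95-Ab replicate 3, the mouse with the largest share of hemoglobin transcripts, also had the highest Alb of its group.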
